A study of Mus musculus with 8 samples.

Results

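The genes described here build and load the neurite: 41 mouse genes for microtubule-associated proteins, tubulins, stathmins, growth cone membrane proteins, neuronal intermediate filaments, collapsin response mediators, kinesin motors, actin-binding proteins and axonal adhesion molecules. They were chosen by name, by what they encode, with earlier results of these data known. All 41 have a row among the 55367 genes of the count table. The cells were Neuro2a, a mouse neuroblastoma line that can extend neurites in culture. In the CRISPR activation (CRISPRa) cultures, 750 ng of a plasmid for a single guide RNA (sgRNA) and 750 ng of a plasmid for sadCas9-VP64, a catalytically inactive Staphylococcus aureus Cas9 fused to a transcriptional activator, were transfected. Control cultures (no sgRNA) received the sadCas9-VP64 plasmid alone, in an amount the labels do not give, so both groups carry the activator and only one carries a guide plasmid. All cultures were kept in EMEM with 10% FBS, time after transfection is not stated in the labels, and the series describes the samples as preliminary data for a study of Scn2a activation. The comparison asks which of these genes differed between cells with and without the guide plasmid. Poly(A)-enriched RNA was counted in 3 CRISPRa libraries (replicates 2, 3 and 5) and 3 no-sgRNA libraries (replicates 2, 3 and 4), of 8 samples in the labels. The labels do not say whether replicates were separate cultures, so p-values measure the spread between these libraries, which may be technical.

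Microtubules give a neurite its core, and each tubulin dimer pairs an alpha with a beta subunit of one of several isotypes. Structural microtubule-associated proteins such as Map1b, Map2 and tau bind and stabilise the polymer, stathmins bind free tubulin and favour its disassembly, and collapsin response mediators couple tubulin and actin to guidance signals in the growth cone. Kinesins walk along microtubules and carry vesicles and organelles outward, while intermediate filaments such as the neurofilaments and peripherin set axon calibre and resilience. L1cam and Ncam1 are surface adhesion molecules of the immunoglobulin superfamily that guide and bundle axons.

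Beta-tubulin isotypes differ most in their C-terminal tails, which are rich in glutamate and are the place where glutamate side chains are added to tubulin. The last 60 coding bases of 5 beta-tubulin genes are shown because isotype composition is one of the differences described below. Sequences are the sense strand, 5′ to 3′, of GENCODE M21 transcripts (GRCm38), each ending in its stop codon, and capitals mark in-frame glutamate codons (GAA or GAG).
Tubb3: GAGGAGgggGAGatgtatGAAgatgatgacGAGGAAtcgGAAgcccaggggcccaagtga
Tubb2a: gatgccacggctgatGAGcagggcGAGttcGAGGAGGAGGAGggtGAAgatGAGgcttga
Tubb2b: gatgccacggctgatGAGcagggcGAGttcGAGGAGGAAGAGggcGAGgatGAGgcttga
Tubb4b: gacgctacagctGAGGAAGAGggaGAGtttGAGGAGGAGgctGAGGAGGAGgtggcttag
Tubb5: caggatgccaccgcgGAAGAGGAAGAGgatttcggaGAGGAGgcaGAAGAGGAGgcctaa

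Of the 20 codons shown for each, 7 encode glutamate in Tubb3, 8 in Tubb2a, 8 in Tubb2b, 9 in Tubb5 and 10 in Tubb4b. The Tubb3 coding sequence is the longest of these, at 1353 bases, and its stretch opens on glutamate codons. The counts are therefore of fixed windows and do not compare whole tails. The Tubb2a and Tubb2b stretches are nearly the same letters, and this likeness runs through the transcripts: 49.6% of the 50-base words of Tubb2a also occur in another gene, mainly Tubb2b. Of the 50-base words of Tubb3, 0.0% occur in another gene, whereas 72.9% of those of Tuba1a are shared, mainly with Tuba1c. Counts of Tuba1a, Tubb2a and Tubb2b are therefore uncertain, because how reads with several matches were handled is not given in the sources used here; Stmn1 shares 18.9% of its words, mainly with Gm11223, and Cfl1 7.3%, mainly with Gm6180.

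Total counts ran from 32269399 to 34248514 in the CRISPRa libraries and from 29739422 to 32377208 in the no-sgRNA libraries. CRISPRa replicate 5 and no-sgRNA replicate 4 each stood apart from the other libraries of their group, with a chi-square per degree of freedom of 14.1 to 17.1 against them, where replicates 2 and 3 gave 4.73 in CRISPRa and 5.98 in no sgRNA. Scn2a, the gene the series aims to activate, was counted 267, 279 and 231 times with the guide plasmid and 190, 193 and 130 times without; the difference of 0.48 on the log2 scale (SE 0.19) did not pass the threshold (edgeR adjusted p = 0.0899), and the authors' deposited table lists 0.62 with an adjusted p of 0.00138. Markers of sympathetic neuroblasts summed to 1939 to 2172 CPM (read counts scaled to a common library size with TMM factors) in CRISPRa and 2197 to 2325 in no sgRNA, with Chga called higher and Phox2a and Hand2 called lower. Fibroblast markers summed to 121 to 125 CPM in CRISPRa and 109.9 to 124 in no sgRNA, with 1 of 8 called higher and 2 lower and with Col3a1 and Thy1 at 0; glial markers summed to 9.37 to 13.8 CPM, epithelial markers to 0.885 to 1.28 CPM and leukocyte markers to at most 0.185 CPM over all 6 libraries. An interferon-response list of 10 genes summed to 1407 to 1621 CPM with the guide plasmid and 72.5 to 76.1 CPM without, all 10 called higher, and this response accompanies every difference described here. Whether it had a part in any of them was not tested. In bulk RNA, fewer cells of a kind and less RNA per cell cannot be told apart.

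Among the 41 genes, 9 rose and 2 fell in the CRISPRa libraries. The largest increases were in Stmn4, L1cam, Map1b and Dpysl3, and the decreases were in Marcks and Prph. A fold change is given for the 33 genes with a mean of at least 0.5 CPM over the 6 libraries, and a gene is called at an edgeR adjusted p under 0.05 over all genes tested. The 11 calls are 33.3% of the 33, where 18.7% of the 15117 genes tested were called. Such a share depends on abundance: among the 8161 genes at least as abundant as Map2, the least abundant of the 33 at 17.9 CPM, 26.4% were called. By direction, 27.3% of the 33 were called higher and 6.06% lower, against 9.47% and 9.25% of all genes tested, or 12.5% and 13.8% of the equally abundant ones. The list was chosen with earlier results of these data known, so these shares describe it and do not test it. Without CRISPRa replicate 5 and no-sgRNA replicate 4, the libraries that stood apart, 11 of the 33 were called higher and 3 lower, all 11 calls among them. That fit called 2830 of 15305 genes in all. Without CRISPRa replicate 3 the count higher was 5 and that lower 2, with 2026 of 15514 genes called in all. The median log2 fold change was 0.107 over the 33 and -0.007 over all genes tested, and 22 of the 33 were positive; without no-sgRNA replicate 2 the median over the 33 was 0.052. For 15 of the 33 (45.5%) the 3 CRISPRa values all lay on one side of the 3 no-sgRNA values, against 36.4% of all genes and 46.3% of the equally abundant ones, so separation of the groups was as common elsewhere. Together the 41 genes took 1.07% to 1.12% of all counts in CRISPRa libraries and 0.953% to 0.994% in no-sgRNA libraries.

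**Figure D1:**
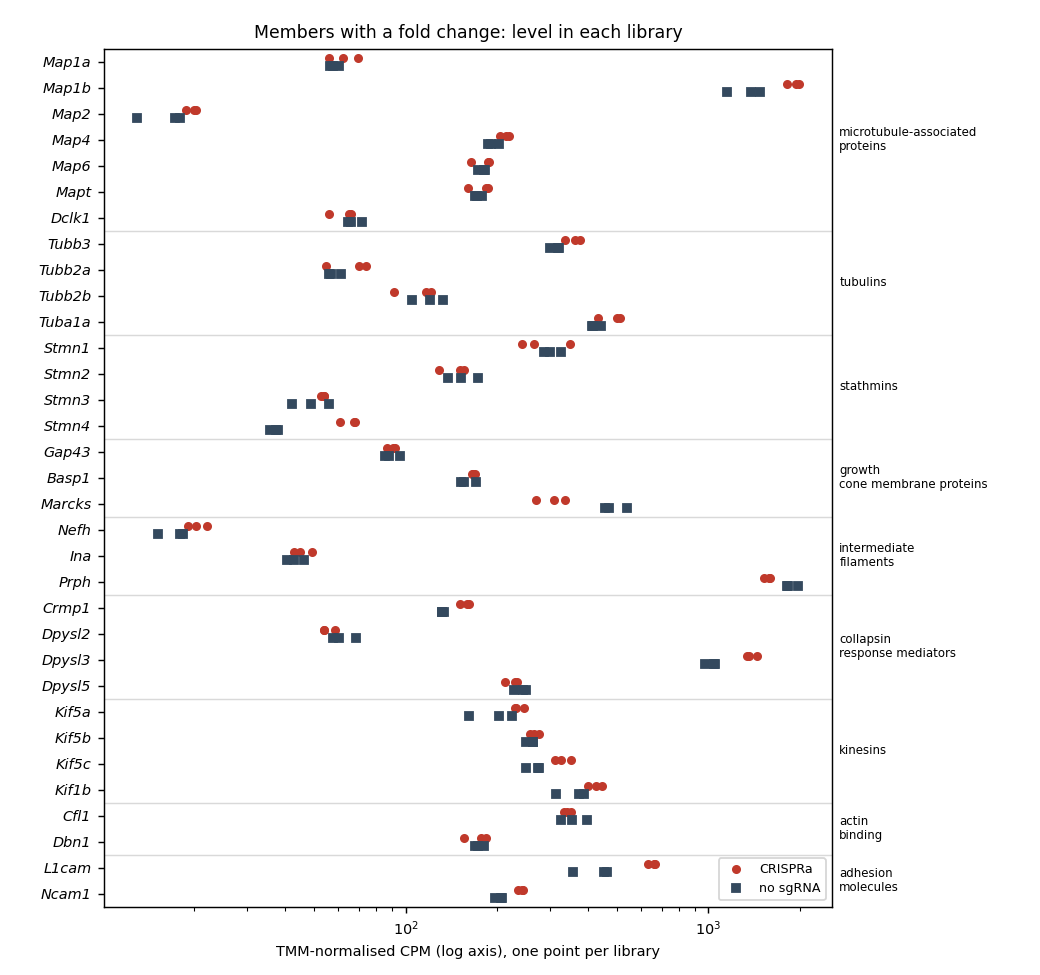
TMM-normalised CPM (x axis, log scale) of the 33 genes with a fold change, 1 point per library: circles are the 3 CRISPRa libraries and squares the 3 no-sgRNA libraries, grouped by role. The groups stand apart for 15 genes, among them Stmn4 (60.9 to 68.0 against 35.8 to 38.0 CPM) and Marcks (269 to 335 against 456 to 538 CPM), and overlap for most of the rest.

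**Figure D2:**
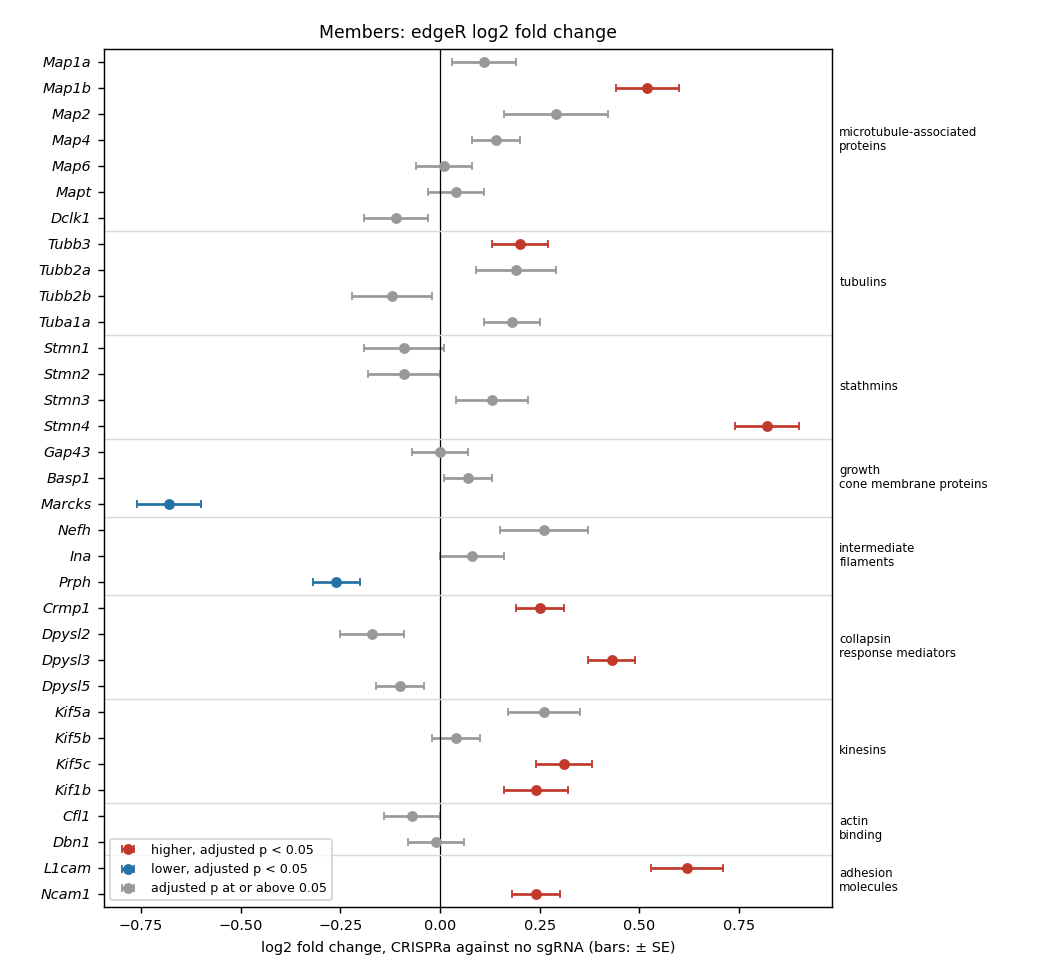
Log2 fold change (CRISPRa against no sgRNA) of the same 33 genes, with bars of ± 1 SE from edgeR and colour by call at an adjusted p under 0.05. Called values run from -0.68 (Marcks) to 0.82 (Stmn4), and most other genes lie within 0.2 of 0.

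Among the structural microtubule-associated proteins, 1 of the 7 with a fold change rose and none fell. Map1b, which binds microtubules in growing axons and is among the first of its class made by young neurons, lies at chr13:99421446-99516540 (GRCm38, minus strand) and had 1821, 1989 and 1949 CPM in the CRISPRa libraries. In the no-sgRNA libraries it had 1480.1, 1377 and 1149 CPM, so the groups did not overlap. Its log2 fold change was 0.52 (SE 0.08), or 1.44-fold (edgeR adjusted p = 0.000507). Map2, the dendritic member of the family, was scarce at 18.8, 20.3 and 20.1 CPM with the guide plasmid and 18.0, 13.0 and 17.3 CPM without. Its groups did not overlap, yet its log2 fold change of 0.29 (SE 0.13) missed the threshold (edgeR adjusted p = 0.122). Map4, the broadly expressed relative of Map2, also separated, at 205 to 219 against 187 to 203 CPM, and missed it as well (log2 fold change 0.14, SE 0.06, edgeR adjusted p = 0.153). Map1a, which takes over from Map1b as neurons mature, had 62.0, 69.7 and 56.0 CPM in CRISPRa and 57.5, 56.4 and 60.3 CPM in no sgRNA. Tau (Mapt), Map6, which protects microtubules from cold and drugs, and the doublecortin-like kinase Dclk1 had log2 fold changes of 0.04, 0.01 and -0.11, each with overlapping groups.

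Doublecortin (Dcx), a microtubule protein of migrating neurons, was counted 10, 6 and 14 times with the guide plasmid and 4, 10 and 6 times without. At so few reads no fold change is given for it. Its relative Dclk1 was present throughout, at 55.8 to 71.6 CPM.

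Of the 4 tubulins with a fold change, Tubb3 rose. Tubb3 encodes class III beta-tubulin, an isotype used as a marker of neurons, and lies at chr8:123411424-123422015 (GRCm38, plus strand). It had 364, 377 and 335 CPM in the CRISPRa libraries and 299, 319 and 321 CPM in the no-sgRNA libraries, without overlap. The log2 fold change was 0.20 (SE 0.07; edgeR adjusted p = 0.0486), close to the threshold, and the call held in 2 of the 6 fits that leave out 1 library: it was lost without CRISPRa replicate 2 or 3 or without no-sgRNA replicate 2 or 3, at log2 fold changes of 0.16 to 0.21. Tuba1a, an alpha-tubulin of developing neurons, had 499.8, 509 and 432 CPM against 413, 417 and 442 CPM. Its CRISPRa replicate 5 lay inside the no-sgRNA range, and its log2 fold change was 0.18 (SE 0.07; edgeR adjusted p = 0.0936). Tubb2a had 70.1, 73.9 and 54.8 CPM against 56.0, 56.6 and 61.4 CPM, again with replicate 5 below the other CRISPRa libraries. Without CRISPRa replicate 5, Tuba1a (0.26) and Tubb2a (0.32) were both called higher. Tubb2b, the near copy of Tubb2a, gave a log2 fold change of -0.12 (SE 0.10), and Tubb4a had 2 counts in CRISPRa replicate 5 and 0 in every other library.

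Stmn4 had the largest increase of the 33 genes. This neuronal stathmin, at chr14:66344296-66361680 (GRCm38, plus strand), had 68.0, 67.8 and 60.9 CPM in the CRISPRa libraries and 38.0, 37.3 and 35.8 CPM in the no-sgRNA libraries, a wide gap between the groups. The log2 fold change was 0.82 (SE 0.08), or 1.77-fold (edgeR adjusted p = 3.59e-06). The other 3 stathmins were not called. Stmn1, the widely expressed founder of the family, had 242, 266 and 349 CPM against 286, 299 and 326 CPM: CRISPRa replicates 2 and 3 lay below every no-sgRNA library and replicate 5 above them all. Without CRISPRa replicate 5 the log2 fold change of Stmn1 was -0.25 and past the threshold, so that 1 library decided the call. Stmn2, a growth cone stathmin, had 129 to 156 against 138 to 174 CPM, and Stmn3 had 52.8 to 54.0 against 42.3 to 55.8 CPM.

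The membrane-bound proteins of the growth cone split. Marcks, a protein kinase C substrate that holds phosphoinositide and cross-links actin at the plasma membrane, fell more than any other of the 33 genes. At chr10:37133375-37138920 (GRCm38, minus strand), it had 335, 309 and 269 CPM in the CRISPRa libraries and 456, 471 and 538 CPM in the no-sgRNA libraries, without overlap. The log2 fold change was -0.68 (SE 0.08; edgeR adjusted p = 5.86e-05), which is 1.61-fold lower. Its functional relatives were not called. Gap43, a growth-associated protein, had 92.2, 90.7 and 86.8 CPM against 85.3, 88.3 and 96.1 CPM. The log2 fold change of Gap43 was 0.00 (SE 0.07). Basp1, the third of these acidic membrane proteins, had 166 to 169.7 against 152 to 170.3 CPM and a log2 fold change of 0.07 (SE 0.06).

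Of the 5 neuronal intermediate filament genes, peripherin gave nearly all of the signal. Prph, the type III filament of peripheral neurons, was the most abundant of the 41 genes per kilobase of exon, and it fell. At chr15:99055174-99058978 (GRCm38, plus strand), it had 1598, 1584 and 1526 CPM in the CRISPRa libraries and 1815, 1826 and 1981 CPM in the no-sgRNA libraries. The groups did not overlap, and the log2 fold change was -0.26 (SE 0.06), or 1.19-fold lower (edgeR adjusted p = 0.0093). The neurofilament heavy chain Nefh was low at 19.1, 20.4 and 22.1 CPM against 15.2, 18.0 and 18.4 CPM; these ranges did not overlap, and the difference missed the threshold (log2 fold change 0.26, SE 0.11, edgeR adjusted p = 0.131). Internexin (Ina), which assembles with neurofilaments, had 42.9 to 49.1 against 40.5 to 46.2 CPM. The light and medium neurofilament chains were almost without reads: Nefl had 1 count in CRISPRa replicate 3 and 0 elsewhere, and Nefm had 1 count in no-sgRNA replicate 2, 6 in replicate 3 and 0 elsewhere. These genes overlap each other on opposite strands, and whether counting used strand is not given in the sources used here.

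Collapsin response mediators moved unequally. Dpysl3, also called CRMP4, had 1358, 1448 and 1337 CPM with the guide plasmid and 1045, 1053 and 975 CPM without. Its groups were far apart and differed by 0.43 on the log2 scale (SE 0.06; edgeR adjusted p = 0.000255). Crmp1 rose less, from 132, 134 and 132 CPM to 151, 162 and 159 CPM (log2 fold change 0.25, SE 0.06, edgeR adjusted p = 0.0112). The call of Crmp1 was lost without CRISPRa replicate 3, at a log2 fold change of 0.23. Dpysl2 (CRMP2), which binds tubulin dimers, had 53.7 to 58.3 against 57.5 to 68.7 CPM, and Dpysl5 had 213 to 234 against 228 to 250 CPM. Both had negative log2 fold changes, -0.17 (SE 0.08) and -0.10 (SE 0.06), which did not pass the threshold. Dpysl4 had 8 counts in CRISPRa replicate 3 and 0 in every other library.

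Kinesin motors with a fold change were all positive, and 2 of the 4 rose. Kif5c, a neuron-enriched heavy chain of conventional kinesin, had 325, 351 and 312 CPM in CRISPRa and 275, 274 and 249.9 CPM in no sgRNA. The groups did not overlap (log2 fold change 0.31, SE 0.07, edgeR adjusted p = 0.00523). Kif1b, a motor for mitochondria and synaptic vesicle precursors, had 425, 444 and 401 CPM against 389, 375 and 314 CPM. The difference of 0.24 on the log2 scale (SE 0.08; edgeR adjusted p = 0.0474) was the call closest to the threshold after Tubb3 and the least stable: it held in 2 of the 6 fits with 1 library left out, being lost without CRISPRa replicate 2 or 3 or no-sgRNA replicate 3 or 4 (log2 fold changes 0.15 to 0.27). It was also lost with upper-quartile scaling (0.24) and with each library's GC trend removed (0.23). Kif5a, a neuron-specific heavy chain, had 232, 230.2 and 246 CPM against 224, 203 and 162 CPM; the groups did not overlap, but no-sgRNA replicate 4 lay well below the others and the difference was not called (log2 fold change 0.26, SE 0.09, edgeR adjusted p = 0.0621). Without no-sgRNA replicate 2, Kif5a was called at 0.37. Kif5b, the heavy chain found in all tissues, had 257 to 276 against 249 to 263 CPM and a log2 fold change of 0.04 (SE 0.06).

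No read was assigned to Kif1a, the main neuronal motor for synaptic vesicle precursors, or to Kif21a in any of the 6 libraries. A count of 0 allows up to 3 counts, or 0.0876 to 0.101 CPM at these depths, for counting error only and if each count is an independent read. All counts of Dcx and of Cntn2 were even. Whether both reads of a pair were counted was not tested, and the limit would then be higher. The related Kif1b had 314 to 444 CPM over the same libraries.

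Neither of the actin-binding genes was called. Cofilin (Cfl1), which severs actin filaments, had 341, 353 and 334 CPM against 325, 355 and 396 CPM, and drebrin (Dbn1), which binds along them, had 178, 185 and 156 CPM against 169, 181 and 173 CPM. The log2 fold changes were -0.07 (SE 0.07) and -0.01 (SE 0.07).

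Both adhesion molecules with a fold change rose. L1cam, which links axons to one another and to the ankyrin scaffold, lies at chrX:73853778-73896105 (GRCm38, minus strand). It had 630, 662 and 664 CPM in the CRISPRa libraries and 451, 464 and 356 CPM in the no-sgRNA libraries, where replicate 4 was the lowest. The log2 fold change was 0.62 (SE 0.09), or 1.54-fold (edgeR adjusted p = 0.000167). Ncam1 had 235, 244 and 243 CPM against 208, 206 and 197 CPM, a smaller difference with little spread in either group (log2 fold change 0.24, SE 0.06, edgeR adjusted p = 0.0116); without CRISPRa replicate 3 it stayed at 0.24 and was no longer called. Cntn2, an axonal contactin, had 8 counts in CRISPRa replicate 3, 4 in no-sgRNA replicate 2 and 0 elsewhere.

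Levels of different genes are compared as CPM per kilobase of summed exon length. In the no-sgRNA libraries Prph stood first at 937 ± 46.4 (SD, n = 3), followed by Tuba1a at 235 ± 8.74. Tubb3 (168 ± 6.51), Stmn1 (158 ± 10.5) and Dpysl3 (155 ± 6.46) came next; Stmn1 lay within its spread of either neighbour, whereas Tubb3 and Dpysl3 differed by more than theirs. Values lay within their spread for Cfl1 (126 ± 12.6) and Marcks (121 ± 10.9). Map1b stood at 84.3 ± 10.7, Basp1 at 79.4 ± 4.77, Gap43 at 59.0 ± 3.65 and L1cam at 57.7 ± 8.01 CPM per kb. The lowest were Map1a at 4.77, Dclk1 at 4.41, Nefh at 4.31 and Map2 at 0.978 CPM per kb. In the CRISPRa libraries Dpysl3 (209 CPM per kb) lay above Tubb3 (192 CPM per kb), and Marcks, at 75.2, lay below Map1b, at 121 CPM per kb.

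Composition within families was described as each isotype's share of the summed CPM per kilobase. Tubb5, the broadly expressed beta-tubulin, made up 66.9%, 64.4% and 68.2% of beta-tubulin in the no-sgRNA libraries and 58.8%, 58.3% and 56.2% in the CRISPRa libraries. Tubb3 made up 14.5%, 15.7% and 12.9% without the guide plasmid and 19.7%, 20.2% and 21.3% with it. Neither gene's ranges overlapped between groups. The summed level of beta-tubulin was lower in CRISPRa, at 989, 1000.2 and 842 CPM per kb against 1102, 1087 and 1331, so the larger share of Tubb3 went with both a higher Tubb3 level and a smaller total. Tubb2a took 4.35% ± 0.275 against 3.09% ± 0.196 (SD, n = 3), while the shares of Tubb2b, Tubb4b and Tubb6 overlapped. These shares depend on how reads with several matches were handled. Of their 50-base words, Tubb2a shares 49.6%, Tubb2b 36.9% and Tubb4b 37.8%, the last mainly with Tubb4b-ps1. The shares also depend on the summed exon lengths, such as 3327 bases for Tubb5 and 1868 for Tubb3.

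Stmn4 was 13.5% ± 1.98 of the stathmin sum in CRISPRa and 7.82% ± 0.743 in no sgRNA (SD, n = 3), and the sum itself overlapped between the groups. Dpysl3 was 76.2% ± 0.394 of the collapsin response mediator sum against 70.4% ± 0.771, while Dpysl5 (11.1% against 14.8%) and Dpysl2 (4.47% against 6.27%) took smaller shares in CRISPRa. That sum was itself higher, at 271, 286 and 266 against 223, 225 and 212 CPM per kb, and neither Dpysl5 (30.5 against 32.6 CPM per kb) nor Dpysl2 (12.2 against 13.8 CPM per kb) was called lower. The 3 conventional kinesin heavy chains summed to 112, 114 and 113 CPM per kb against 104, 98.7 and 91.1 CPM per kb. Kif5c was the largest part of that sum in every library, at 38.6% to 43.0% in CRISPRa and 37.2% to 38.8% in no sgRNA. Peripherin was 97.6% of the intermediate filament sum in CRISPRa and 98.2% in no sgRNA.

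**Figure D3:**
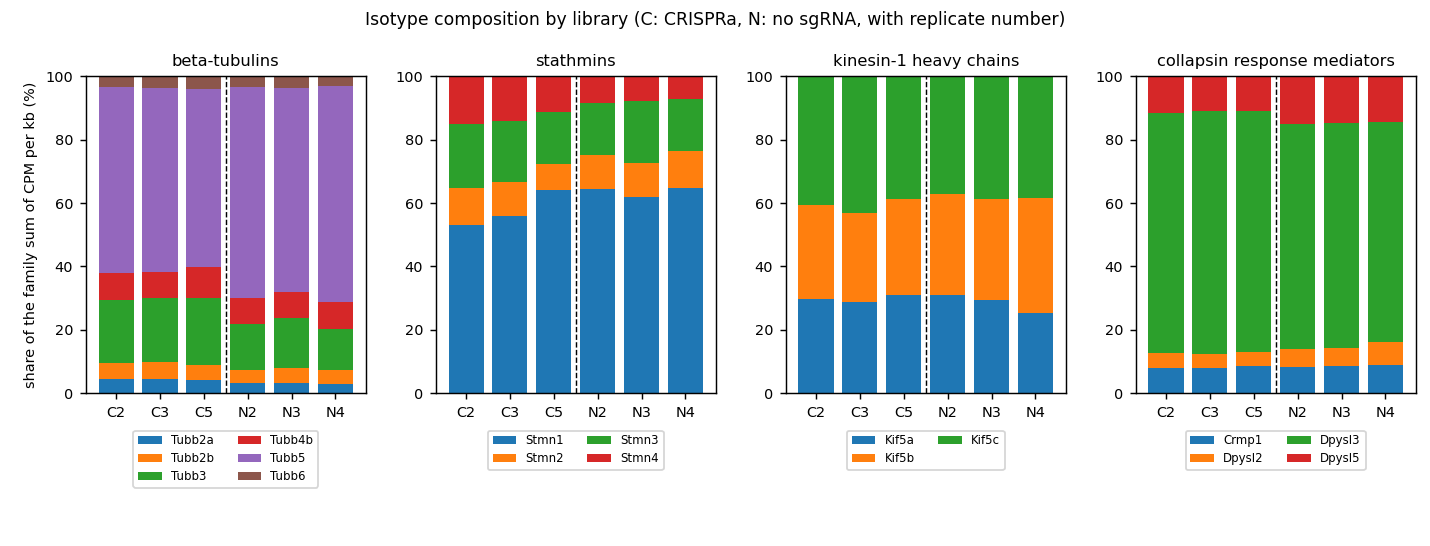
Share of each isotype in the summed CPM per kb of its family (y axis, %), 1 stacked bar per library; bars left of the dashed line are CRISPRa and right of it no sgRNA, and isotypes under 0.1% in every library are left out. In beta-tubulins the Tubb3 band is wider in every CRISPRa library (19.7% to 21.3%) than in any no-sgRNA library (12.9% to 15.7%), and the Tubb5 band is narrower.

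The 250 bases before the RefSeq start (GRCm38.p6) were read for the 24 of the 41 genes with an entry. Those of Map1b and Prph are shown because these genes had the highest CPM among those called in each direction, and both hold the letters of a TATA box, in capitals with any GC box. The Map1b stretch is chr13:99516603-99516852 on the minus strand and the Prph stretch is chr15:99054924-99055173 on the plus strand, both 5′ to 3′ towards the gene.
Map1b: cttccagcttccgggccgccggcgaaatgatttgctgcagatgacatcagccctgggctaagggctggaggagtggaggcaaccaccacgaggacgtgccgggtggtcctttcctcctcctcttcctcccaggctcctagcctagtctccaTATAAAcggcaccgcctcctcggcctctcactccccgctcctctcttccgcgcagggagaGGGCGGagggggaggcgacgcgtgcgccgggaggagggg
Prph: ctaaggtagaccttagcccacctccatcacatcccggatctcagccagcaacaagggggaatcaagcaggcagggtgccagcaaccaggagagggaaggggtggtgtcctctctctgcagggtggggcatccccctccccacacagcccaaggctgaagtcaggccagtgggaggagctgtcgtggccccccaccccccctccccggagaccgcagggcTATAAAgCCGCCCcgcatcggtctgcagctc

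The first base of TATAAA lies 31 bases before the start in Prph and 99 bases before it in Map1b. Both strands were searched, so a GC box also appears as the reverse complement of its letters. TATAAA occurred in 5 of the 24 stretches, against 12.4% of 32851 promoters of the same length, CCAAT in 9 (33.8% of all) and GGGCGG in 16 (32.7% of all). These counts are not adjusted for GC content, which ran from 41.6% (Dcx) to 81.2% (Map2). Most of the 24 lay above the median of 52.4% over all promoters. Stmn4, Marcks, Dpysl3 and Ncam1, all called, are not among the 24. The RefSeq start used for L1cam lies 15271 bases from the start of that gene in the count table. The core of the interferon-stimulated response element, a pair of TTTC half-sites with any 2 bases between them (3.0% of all promoters), and the E-box CACGTG (6.0% of all) occurred in 0 of the 24. These are matches of letters in one window and were not tested for binding.

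To set these genes in the wider machinery, 137 other cytoskeleton and transport genes were listed, of which 122 had a fold change and 8 had no count in any library. Of the 122, 14 rose (11.5%) and 11 fell (9.02%), and the median log2 fold change was 0.011. Over all genes tested the shares were 9.47% and 9.25%. Among the 8161 genes at least as abundant as Map2 they were 12.5% and 13.8%, though some of the 122 are less abundant. The groups did not overlap for 44 of the 122 (36.1%), against 36.4% of all genes tested and 46.3% of those 8161. The count higher was 9 without CRISPRa replicate 2 or 3, the count lower was 7 without CRISPRa replicate 3 or no-sgRNA replicate 4, and with the length trend removed 17 were lower.

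Of the 8 other tubulins with a fold change, 1 rose and 3 fell. Tubb5 had 1933, 1941 and 1575 CPM in CRISPRa against 2450.2, 2327 and 3017 CPM in no sgRNA (log2 fold change -0.52, SE 0.10, edgeR adjusted p = 0.00192); in the libraries numbered 2 and 3 alone it was called at -0.30. Tuba1b, a widely expressed alpha-tubulin, fell by 0.45 on the log2 scale (SE 0.08, edgeR adjusted p = 0.000899), from 468, 497 and 578 CPM to 364, 371 and 393 CPM; 66.7% of its 50-base words occur in other genes, mainly Tuba1c. Tuba8 rose from a low level, at 8.24, 8.06 and 8.45 CPM against 4.29, 4.75 and 4.23 CPM (log2 fold change 0.90, SE 0.16, edgeR adjusted p = 0.00113).

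Among the other kinesins, light chains and cargo adaptors, 5 of 24 rose and none fell. Hap1, the huntingtin-associated adaptor that links cargo to kinesin and dynactin, had 334, 333 and 348 CPM against 183, 191 and 174 CPM. Its log2 fold change was 0.89 (SE 0.06; edgeR adjusted p = 9.96e-08). Kif21b had 88.4, 86.1 and 97.0 CPM against 67.5, 69.1 and 53.6 CPM (log2 fold change 0.51, SE 0.09, edgeR adjusted p = 0.00142). Its exons sum to 12184 bases, and 21.6% of all genes tested with at least 12000 bases were called higher. Kif21b stayed called in every refit, at 0.28 to 0.58. In the dynein and dynactin list 3 of 22 rose and 3 fell. Dync1h1, the heavy chain that drives transport toward the cell body, had 361, 431 and 395 CPM against 289, 259 and 225 CPM (log2 fold change 0.62, SE 0.09, edgeR adjusted p = 0.00023). Also long, at 15658 bases of exon, Dync1h1 stayed called in every refit, at 0.43 to 0.71. Dynein regulators went in both directions, with Ndel1 at 0.22 and Nde1 at -0.39, and the adaptor Bicd1 was at -0.28. The call of Ndel1 was lost without any of CRISPRa replicates 2, 3 and 5 or no-sgRNA replicates 3 and 4 (0.17 to 0.26), and that of Bicd1 without CRISPRa replicate 2 (-0.24) or 3 (-0.27); with the length trend removed Bicd1 was at -0.49.

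Enzymes that modify or sever tubulin had 1 rise and 3 falls of 16. Vash1, which removes the terminal tyrosine of alpha-tubulin, had 61.4, 63.7 and 70.5 CPM against 38.3, 41.7 and 25.8 CPM (log2 fold change 0.89, SE 0.13, edgeR adjusted p = 0.000352). Fignl1, a relative of the severing protein fidgetin, had a log2 fold change of -0.61 and the deglutamylase Agbl5 one of -0.31. In the actin and growth cone list 2 of 23 rose and 2 fell: the cofilin phosphatase Ssh2 (0.58) and Rufy3 (0.21) rose, and the actin-monomer binder Tmsb10 (-0.36) and the filament-tip protein Evl (-0.20) fell. Several of these calls were lost when 1 library was left out. Agbl5 and Evl were each called in 1 of the 6 fits with a library left out (Agbl5 without CRISPRa replicate 2, Evl without CRISPRa replicate 5) and lost in the others, at -0.34 to -0.21 for Agbl5 and -0.21 to -0.16 for Evl. Rufy3 was lost without CRISPRa replicate 2 (0.21) or 3 (0.23) or no-sgRNA replicate 3 (0.17), and Tmsb10 was lost without CRISPRa replicate 5 (-0.29) or no-sgRNA replicate 3 (-0.33) or 4 (-0.27). With the length trend removed Rufy3 (0.12) and Evl (-0.18) were not called, nor was Evl with library-size scaling (-0.18), without a filter (-0.20) or with the GC trend removed (-0.17). Agbl5 was not called in the 4 libraries numbered 2 and 3 (-0.18), where Ssh2 was called at 0.31 and Tmsb10 at -0.21; with the replicate block and the length trend removed Ssh2 was 0.20 and not called (edgeR adjusted p = 0.107). Of the 50-base words of Tmsb10, 27.0% occur in another gene, mainly Gm9844. Tppp3 (0.34) was the only call among 17 other microtubule-associated proteins and Ank2 (0.53), an ankyrin of the axonal membrane scaffold, the only one of 7 in its list. Ank2 stayed called but at 0.29 with the length trend removed, and at 0.20 with the replicate block as well. Of the 5 other adhesion molecules with a fold change, edgeR called 0, with 0 at an unadjusted p under 0.05 and 0 called by DESeq2; all 5 were positive.

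**Figure D4:**
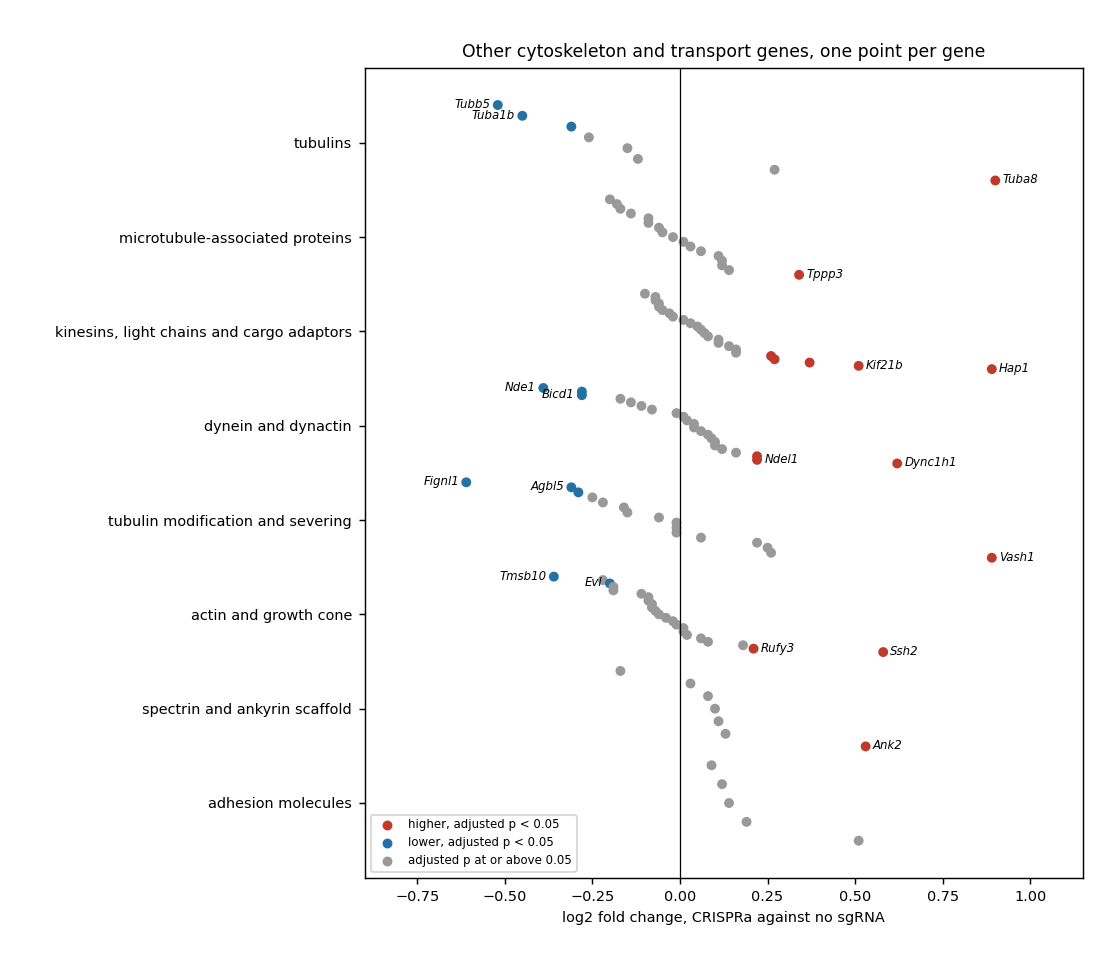
Log2 fold change (x axis, CRISPRa against no sgRNA) of the 122 other cytoskeleton and transport genes, 1 point per gene, by list and coloured by call at an adjusted p under 0.05; the largest calls of each list are named. Most points are uncalled and near 0, and called values run from -0.61 (Fignl1) to 0.90 (Tuba8).

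Fold changes in these libraries moved with gene length, and the genes described are longer than most: their median summed exon length was 5602 bases over the 33, against 3927 over all genes tested. The median log2 fold change of all genes tested went from -0.088 for genes with under 2000 bases of exon to 0.105 for those with 12000 or more, and the share called higher went from 3.18% to 21.6%. Of the 6 genes of the 33 with at least 12000 bases, 2 were called higher (Map1b and Kif1b). When each library's length trend was removed, Map1b stayed called at a log2 fold change of 0.39 (0.32 with the replicate block, where Prph was called at -0.16) and Kif1b was not called (0.09, edgeR adjusted p = 0.342), whereas Tuba1a, a short gene, was called at 0.23. Stmn4, whose exons sum to 1916 bases, was called either way. Over the 33 genes the counts stayed at 9 higher and 2 lower, and over all genes the share of calls that were higher went from 50.6% to 44.3%.

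**Figure D5:**
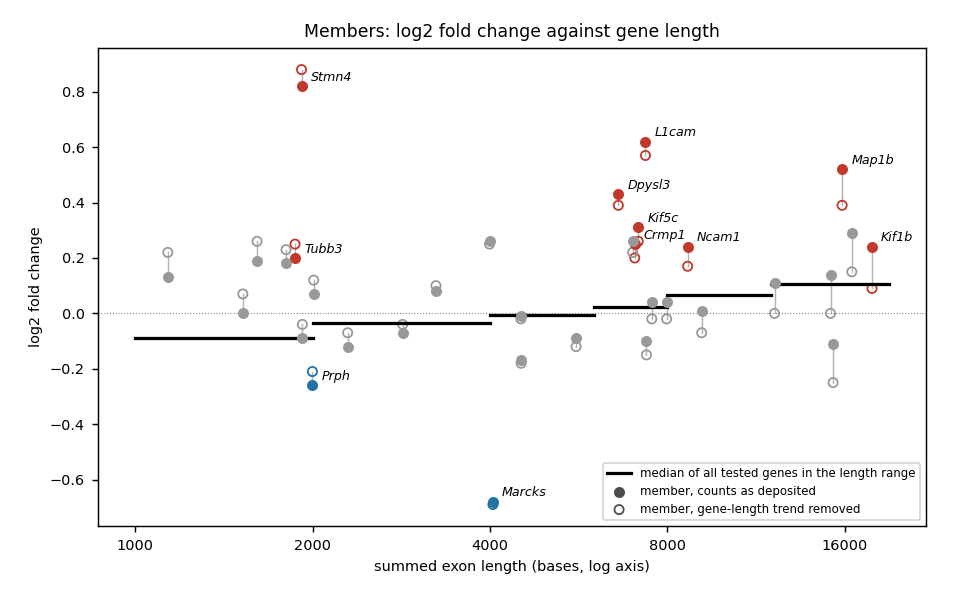
Log2 fold change of the 33 genes (y axis) against summed exon length (x axis, bases, log scale); filled points are from the counts as deposited, open points joined to them are after each library's length trend was removed, and black lines are medians of all genes tested in each length range. The medians climb from -0.088 to 0.105, Kif1b drops from 0.24 to 0.09, and Stmn4, L1cam, Dpysl3 and Map1b remain the highest either way.

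The authors' deposited table compares 8 samples, among them these 6, so it is not an independent test. It gives 33 of the 41 genes an adjusted p, and 14 of these are past 0.05 with a positive log2 fold change and 2 with a negative one. Of all 13798 genes with an adjusted p in the authors' deposited table, 28.6% are past 0.05, 14.8% higher and 13.8% lower. The direction of the authors' deposited table is not stated and was set from the signs of the 11 genes called here, so the shared sign of these genes and the split of 14 against 2 are no separate evidence of direction. All 11 are among those 16. In the authors' deposited table Stmn4 has a log2 fold change of 0.90 (SE 0.06, adjusted p = 1.89e-49), L1cam 0.60, Dpysl3 0.46, Map1b 0.41, Prph -0.20 and Marcks -0.67. The 5 further genes past 0.05 in the authors' deposited table are Map1a (0.24, adjusted p = 0.00167), Map4 (0.15, adjusted p = 0.0204), Tubb2a (0.30, adjusted p = 2.68e-05), Tuba1a (0.30, adjusted p = 5.62e-06) and Nefh (0.29, adjusted p = 0.0371).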

How the data were processed

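Poly(A)-enriched RNA of transfected Neuro2a cells was measured in 8 samples, per the labels, 4 of them CRISPRa, and groups were taken from the sample titles. The authors deposited a table of read counts per gene for 6 libraries, 3 per group. Counts of the other 2 samples were not analysed here. Per the submitters' processing notes, mm10, STAR 2.5.1b, featureCounts and R 4.1.2 were used; annotation, strandedness and multi-mapping are not given in the sources used here. Of 55367 gene names, 53292 are found in GENCODE M21, 52900 of them at identical coordinates, so positions are given on GRCm38, 1-based. A second deposited table holds the authors' DESeq2-style comparison of 20581 genes over 8 samples, per the file headers: a signal (mean normalised count), a log2 fold change with its SE, a Wald score and p-values. Its direction is not stated and was read as CRISPRa against no sgRNA, because all 11 genes called here have the same sign in it.

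Counts were tested in R 4.3.3 with edgeR 4.0.16 (quasi-likelihood F test, filterByExpr, TMM factors, no covariate), with Benjamini-Hochberg adjustment over all 15117 genes tested and calls at an adjusted p under 0.05. SE is the log2 fold change divided by the square root of F. Fold changes are given at a mean of at least 0.5 CPM over the 6 libraries. The 41 genes and the other lists were chosen with earlier results of these data known. Of the other cytoskeleton genes, the text names in each list the 2 largest increases and 2 largest decreases among calls with a mean of at least 1 CPM and groups that do not overlap; all 41 genes and Scn2a are named. Marker genes were named after their values were seen. The test was tried on simulated data. Alternatives were scaling by median ratios, upper quartiles or library size alone, no filter or a CPM of at least 1 in 4 libraries, limma-voom (limma 3.58.1) and DESeq2 1.42.0 (independent filtering off) in place of edgeR, each library left out, only the libraries numbered 2 and 3 with and without a replicate block, lowess removal (span 0.2) of each library's length or GC trend, and thresholds of 0.01 and 0.1. Counting error is a larger part of the spread between libraries for genes of a few CPM than for abundant ones. The SE was 0.16 for Tuba8 (mean 6.34 CPM) and 0.19 for Scn2a (mean 6.72 CPM), against 0.06 for Map4 (mean 203 CPM).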

Additional observations from a re-analysis of the deposited data

How the results depend on the processing

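Every call named in the report kept its direction in each alternative run. Stmn4, Map1b, L1cam, Dpysl3, Kif5c, Marcks and Prph were called in all 12 alternatives that refit the libraries and in all 6 fits with 1 library left out. The exceptions among the 11 were Crmp1 and Ncam1 (each lost once), Tubb3 (lost in 4 of the 6) and Kif1b, which was lost with 1 library left out in 4 of the 6 and also under upper-quartile scaling (log2 fold change 0.24), removal of the GC trend (0.23), removal of the length trend (0.09), and that removal with the replicate block (0.08). Ssh2 lost its call with the length trend removed and the replicate block (0.20). Kif5a was called without a filter, by DESeq2, by limma-voom and with the GC trend removed.

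With 1 library left out, 1987 to 2518 genes were called in all, 5 to 11 of the 41 higher and 2 to 3 lower, and 9 to 13 of the other cytoskeleton genes higher and 7 to 10 lower. The 5 came without CRISPRa replicate 3. At an adjusted p under 0.01, 1417 genes were called in all, 5 of the 41 higher, and 9 of the other list higher and 5 lower; at 0.1, 17 of the other list were lower. Removing the length trend, with or without the replicate block, gave 17 lower in that list. A moved threshold changes such counts by construction. For a library left out and for the length trend the cause of the change was not tested.

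Replicate numbers 2 and 3 occur in both groups, but nothing in the labels says that they mark a shared culture or day, and only 2 pairs can be formed. Same-numbered libraries did not deviate together: the correlation of their deviations from the group means over 15117 genes was -0.00459 for number 2 and -0.0256 for number 3. The replicate block on those 4 libraries, with 1 residual degree of freedom, called 3170 genes in all, 13 of the 41 higher and 3 lower; the same libraries without a block gave 2830, 11 and 3. The block left Scn2a uncalled (0.36), as did every other refit (0.28 to 0.59). At the alternative threshold of 0.1, Scn2a passed in the report's fit (edgeR adjusted p = 0.0899).

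The sign of 10 genes that were not called depended on the setting, and the cause was not tested. Over all alternatives Stmn1 ran from -0.25 to 0.03, Dclk1 from -0.25 to 0.01 and Tubb2b from -0.21 to 0.11. Gap43, at -0.00 in the report's fit, was 0.01 with median-ratio scaling, without a filter, with the stricter filter and in DESeq2, 0.00 with upper-quartile scaling and limma-voom, 0.02 with library size only, 0.08 in the 4 libraries with and without the replicate block, 0.07 with the length trend removed and 0.13 with both. In those 4 libraries, unblocked and blocked, Dclk1 was 0.01 and 0.01, Tubb2b 0.08 and 0.09, Stmn2 0.08 and 0.08, Cfl1 0.03 and 0.03, and Dbn1 0.05 and 0.05. With the length trend removed Map6 was -0.07, Mapt -0.02 and Kif5b -0.02; with the block as well Map6 was 0.00, Kif5b 0.00, Tubb2b 0.11, Stmn2 0.06, Cfl1 0.04 and Dbn1 0.05. Dbn1 was 0.00 with library size only, 0.00 with the stricter filter and 0.03 with the GC trend removed. Leaving out 1 library moved Gap43 between -0.04 and 0.05, Map6 between -0.02 and 0.07, Tubb2b between -0.21 and 0.00, Stmn1 between -0.25 and 0.03, Cfl1 between -0.13 and 0.01 and Dbn1 between -0.05 and 0.06. The 8 genes with no fold change had at most 14 counts in any library, too few for a fold change to be given.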
